A study of Mus musculus with 13 samples.

Results

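The miR-23/27/24 miRNAs come from a pair of paralogous hairpin clusters. The a cluster holds the hairpins of miR-23a, miR-27a and miR-24-2, and the b cluster holds those of miR-23b, miR-27b and miR-24-1. The 5 miRNAs described here were chosen by name as the main products of these hairpins: mmu-miR-23a-3p, mmu-miR-27a-3p, mmu-miR-23b-3p, mmu-miR-27b-3p and mmu-miR-24-3p. They are 5 of the 1079 mouse miRNAs on the array, and all 5 were detected in all 13 tumors.

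A miRNA is cut from a hairpin RNA and guides the Argonaute protein to messenger RNAs, mainly through its seed, the bases 2 to 8 counted from its 5′ end. Each hairpin has 2 arms, and as a rule the product of one arm is kept and the other is mostly lost. Hairpins of one cluster are made from a shared primary transcript, so their products can vary together, although each can also be processed or degraded at its own rate. miR-23, miR-27 and miR-24 are known from the endothelium, from muscle and from immune cells. miR-27 is known to repress regulators of fat cell formation and of vessel sprouting, and miR-24 is known to repress cell cycle genes. The mature miR-24-3p is the same molecule from either cluster, so that only its opposite arms, miR-24-2-5p and miR-24-1-5p, tell the clusters apart.

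The tumors were grown from B78H1 cells, an amelanotic mouse melanoma clone without MHC-I that derives from B16 melanoma, after subcutaneous injection into the flanks of male C57BL/6 mice. Mice of the curcumin group (n = 7) ate chow with 4% of curcumin, the yellow polyphenol of turmeric, from 14 days before the injection onward, and controls (n = 6) ate the same batch of chow without it. Tumor growth was followed for 28 days. The age of the mice is not given in the sources used here. All mice carried the same cells, the 7 and 6 samples match the numbers of mice in the methods, and the labels do not name the flank. RNA of a whole tumor piece was measured, which can include vessels, stroma and blood cells. In such bulk RNA, fewer cells of a type and less RNA per cell cannot be told apart, which holds for every difference below.

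The mature sequences of RefSeq (assembly GRCm38.p6) show what separates the members from each other. The seed is in capitals, and every sequence reads 5′ to 3′.

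mmu-miR-23a-3p: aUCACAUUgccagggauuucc

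mmu-miR-27a-3p: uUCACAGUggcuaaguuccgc

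mmu-miR-27b-3p: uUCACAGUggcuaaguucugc

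mmu-miR-24-3p: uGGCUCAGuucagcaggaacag

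miR-27a-3p and miR-27b-3p shared all bases of the seed and differed at 1 of 21 positions. The substitution from miR-27a-3p to miR-27b-3p is C19U, counted from the 5′ end. Probes for miRNAs this close may each bind some of the other miRNA, which was not tested. miR-23b-3p had no sequence in the source used, so that it could not be set against miR-23a-3p. Whether the probes of this pair bind some of the other miRNA was not tested either. The seeds of miR-23a-3p, miR-27-3p and miR-24-3p differed from each other. Among the 840 array miRNAs with a RefSeq sequence, which included 4 of the 5 members (all but mmu-miR-23b-3p), 0 others had the seed of one of the members printed here. The a cluster lies on the plus strand of chromosome 8, from 84208518 to 84208921 (404 bases), where miR-23a-3p occupies 84208563 to 84208583 and miR-27a-3p 84208727 to 84208747. The b cluster lies on the plus strand of chromosome 13, from 63300484 to 63301275 (792 bases), inside the annotated span of the gene Aopep, an aminopeptidase gene, with miR-27b-3p at 63300760 to 63300780. miR-24-3p is annotated at both places, on chromosome 8 from 84208875 to 84208896 and on chromosome 13 from 63301251 to 63301272.

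The opposite arms of the miR-24 hairpins are shown because each is made by 1 cluster only. The probes of these arms may each bind some of the other arm, which was not tested.

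mmu-miR-24-2-5p: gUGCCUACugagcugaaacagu

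mmu-miR-24-1-5p: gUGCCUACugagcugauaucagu

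They shared the seed and differed near the 3′ end. Counted position by position without a gap, the substitutions from miR-24-2-5p (22 bases) to miR-24-1-5p (23 bases) are A17U, C19U, A20C, G21A and U22G. miR-24-1-5p is 1 base longer, and both end in cagu. With a gap for the extra base, a u before cagu, A17U is the only substitution. Hairpins named Mir3074-2 and Mir3074-1 overlap the miR-24 hairpins of the a and the b cluster, and their 3 products on the array were detected in 0 of 13 tumors.

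Each array measured the RNA of 1 tumor in 1 color. Brightness was summed over all probes of a miRNA and quantile normalized, which gives every array the same set of values. A normalized value therefore reflects the rank of the miRNA on its array, equal values in different tumors mean equal ranks, and every change is relative to the other miRNAs. All values are log2 of this signal unless stated otherwise. The probes of different miRNAs have different brightness for the same amount of RNA, so that levels are compared between tumors and not between miRNAs. The number of arrays limits the precision. Before normalization the summed signal of an array ran from 114095 to 281508 in curcumin tumors and from 150272 to 244666 in controls. Curcumin tumor 5 had the lowest sum and the fewest detected miRNAs, 272, where the others had 313 to 412, and results are therefore also given without it. The arrays lay on 2 slides, with 3 curcumin and 2 control tumors on slide 1 and 4 of each on slide 2. Each slide has 2 lines of arrays, and on both slides line 1 held the controls and line 2 the curcumin tumors, so that diet and position cannot be told apart.

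The b cluster miRNAs were higher in curcumin tumors, miR-23a-3p was also higher, and for miR-27a-3p no difference was detectable after quantile normalization, although it was higher by 0.45 (log2) under another scaling. After quantile normalization the fold changes were 2.17 for miR-23b-3p, 1.68 for miR-27b-3p, 1.27 for miR-23a-3p and 0.985 for miR-27a-3p. miR-24-3p, which both clusters make, stood at 1.32 and missed the threshold. In limma, which fits a linear model per miRNA and borrows the spread from all of them, 3 of the 5 members passed an adjusted p of 0.05 (Benjamini-Hochberg over 1079 miRNAs), all 3 higher in curcumin tumors. Of all miRNAs tested, 8.34% were called higher and 7.51% lower, and among the 243 detected in all tumors, as the members were, 20.2% were called higher. The median log2 difference was 0.40 over the 5 members and -0.09 over these 243.

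**Figure D1:**
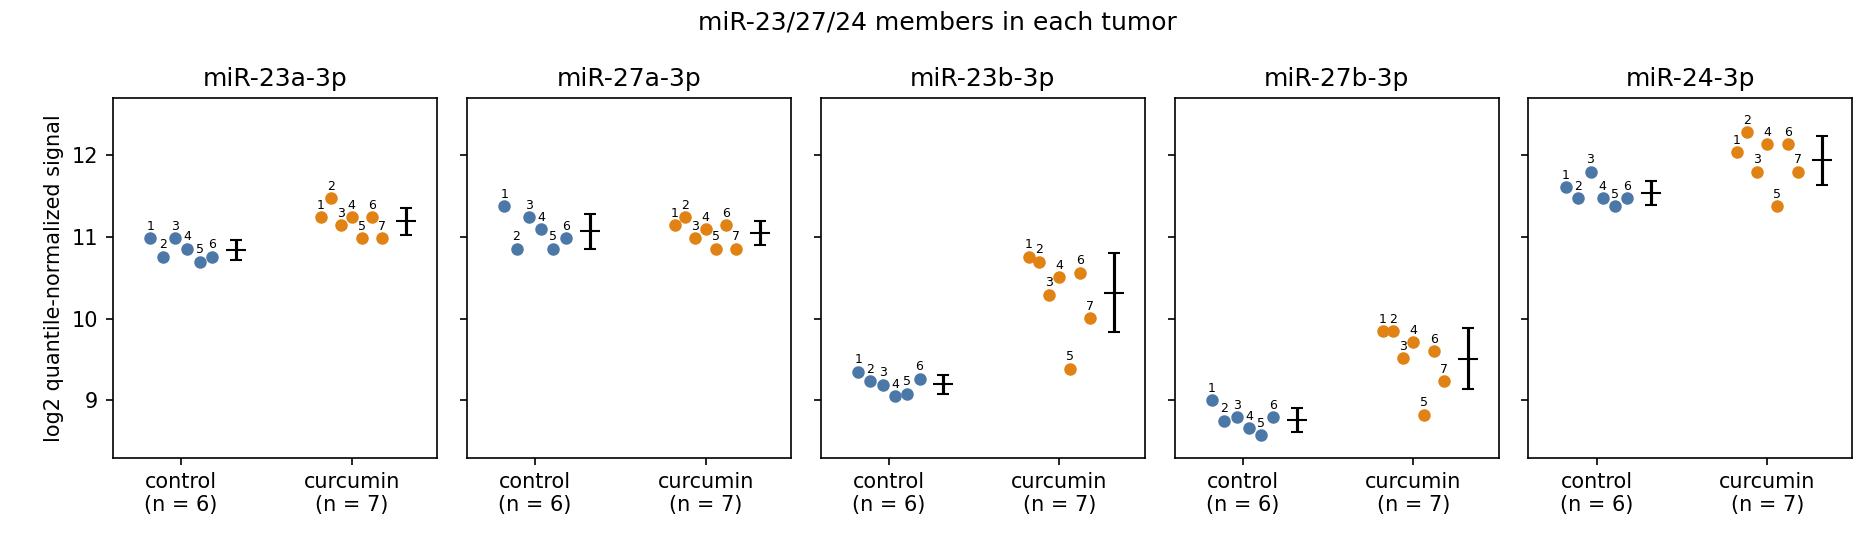
Log2 quantile-normalized signal of the 5 members in each tumor. Points are tumors numbered as in the labels, blue for controls and orange for the curcumin diet, and the bars give the mean ± SD. miR-23b-3p ran from 9.39 to 10.76 in curcumin tumors and from 9.06 to 9.35 in controls, whereas the groups of miR-27a-3p overlapped fully, from 10.86 to 11.24 and from 10.86 to 11.38.

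miR-23b-3p showed the largest difference of the 5. Its signal was 10.76, 10.70, 10.30, 10.51, 9.39, 10.56 and 10.00 in curcumin tumors 1 to 7, and 9.35, 9.24, 9.19, 9.06, 9.08 and 9.27 in controls 1 to 6. All 7 curcumin tumors lay above all 6 controls, with tumor 5 just above the highest control and the other 6 well apart. The groups were separated in this direction in 8.23% of the 243 miRNAs detected in all tumors. On the array the rank of miR-23b-3p, counted from the brightest miRNA, was 21 to 41 in curcumin tumors and 42 to 51 in controls. The log2 difference was 1.12 ± 0.20 (SE), or 2.17-fold (95% interval 1.60 to 2.95), with an adjusted p of 0.00432 in limma and p = 0.00117 in an exact two-sided permutation test, whose 1716 splits cannot give less than 0.000583.

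miR-27b-3p, made from the same transcript, ordered the tumors in nearly the same way. Its signal was 9.84, 9.84, 9.51, 9.72, 8.83, 9.61 and 9.24 in curcumin tumors 1 to 7, and 9.00, 8.75, 8.79, 8.66, 8.58 and 8.79 in controls 1 to 6. In 6 of 7 curcumin tumors it was above the highest control, and only tumor 5 fell among the controls, where it exceeded 5 of 6. The log2 difference was 0.75 ± 0.16 (SE), or 1.68-fold (95% interval 1.32 to 2.14), with an adjusted p of 0.00972 in limma and p = 0.00233 in the exact permutation test.

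miR-23a-3p of the a cluster was also higher. Its signal was 11.24, 11.48, 11.15, 11.24, 10.99, 11.24 and 10.99 in curcumin tumors 1 to 7, and 10.99, 10.76, 10.99, 10.86, 10.70 and 10.76 in controls 1 to 6. In 5 of 7 curcumin tumors it was above every control, and tumors 5 and 7 tied with the highest controls, 1 and 3. The log2 difference was 0.35 ± 0.08 (SE), or 1.27-fold (95% interval 1.12 to 1.44), with an adjusted p of 0.0174 in limma and p = 0.00583 in the exact permutation test. This difference was 0.78 after scaling each array to the 75th percentile of the miRNAs detected in all tumors, where that of miR-27b-3p was 0.75, so that the order of these miRNAs depended on the scaling.

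miR-27a-3p, its neighbor on the same transcript, did not pass the test. Its signal was 11.15, 11.24, 10.99, 11.09, 10.86, 11.15 and 10.86 in curcumin tumors 1 to 7, and 11.38, 10.86, 11.24, 11.09, 10.86 and 10.99 in controls 1 to 6. The groups overlapped fully, with control 1 the highest of all and the lowest value shared by tumors of both diets. The log2 difference was -0.02 ± 0.10 (SE) with a 95% interval from -0.24 to 0.20, an adjusted p of 1.00 in limma and p = 0.845 in the exact permutation test. The sign depended on the scaling. With each array scaled to the 75th percentile of the miRNAs detected in all tumors, miR-27a-3p was higher in curcumin tumors by 0.45 on the log2 scale, with an adjusted p of 0.0278 in limma, and with no scaling at all it was higher by 0.44, with an adjusted p of 0.603.

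miR-24-3p, to which both clusters contribute, missed the threshold. Its signal was 12.03, 12.28, 11.80, 12.13, 11.38, 12.13 and 11.80 in curcumin tumors 1 to 7, and 11.61, 11.48, 11.80, 11.48, 11.38 and 11.48 in controls 1 to 6. In 4 of 7 curcumin tumors it was above all controls, 2 tied with control 3, and tumor 5 tied with control 5 at the lowest value. The log2 difference was 0.40 ± 0.13 (SE), or 1.32-fold (95% interval 1.07 to 1.62), with an adjusted p of 0.0647 in limma and p = 0.0216 in the exact permutation test. Without curcumin tumor 5 it was 0.49 with an adjusted p of 0.0060, and after scaling to the 75th percentile of detected miRNAs it was 0.78 with an adjusted p of 0.00810.

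Both opposite arms of miR-24 were dim but were detected in all 13 tumors, and both rose. miR-24-2-5p of the a cluster had signals of 5.91, 6.29, 5.63, 6.18, 4.95, 5.80 and 5.32 in curcumin tumors 1 to 7, and 4.97, 4.47, 5.06, 4.67, 4.41 and 4.76 in controls 1 to 6. miR-24-1-5p of the b cluster had signals of 4.43, 5.17, 4.44, 4.75, 3.40, 4.29 and 3.95 in curcumin tumors 1 to 7, and 3.92, 3.22, 3.47, 3.33, 2.98 and 3.15 in controls 1 to 6. For each arm 6 of 7 curcumin tumors were above all controls and tumor 5 was among the controls. The log2 difference was 1.00 ± 0.21 (SE) for miR-24-2-5p, with an adjusted p of 0.0103 in limma, and 1.00 ± 0.26 (SE) for miR-24-1-5p, with an adjusted p of 0.0258. The call of miR-24-1-5p was lost, with adjusted p-values from 0.0505 to 0.0536, when curcumin tumor 1 or control 2, 4 or 5 was left out. With normexp background correction the differences were 0.40 and 0.21, where an added 50 units shrinks the log2 differences of dim miRNAs. With no normalization both calls were lost, with adjusted p-values of 0.365 for miR-24-2-5p and 0.389 for miR-24-1-5p in limma. The other opposite arms carried little signal. miR-27a-5p, miR-23b-5p and miR-27b-5p were detected in 0 of 13 tumors, and miR-23a-5p in 6 of 7 curcumin and 4 of 6 control tumors, with an adjusted p of 0.163 in limma.

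**Figure D2:**
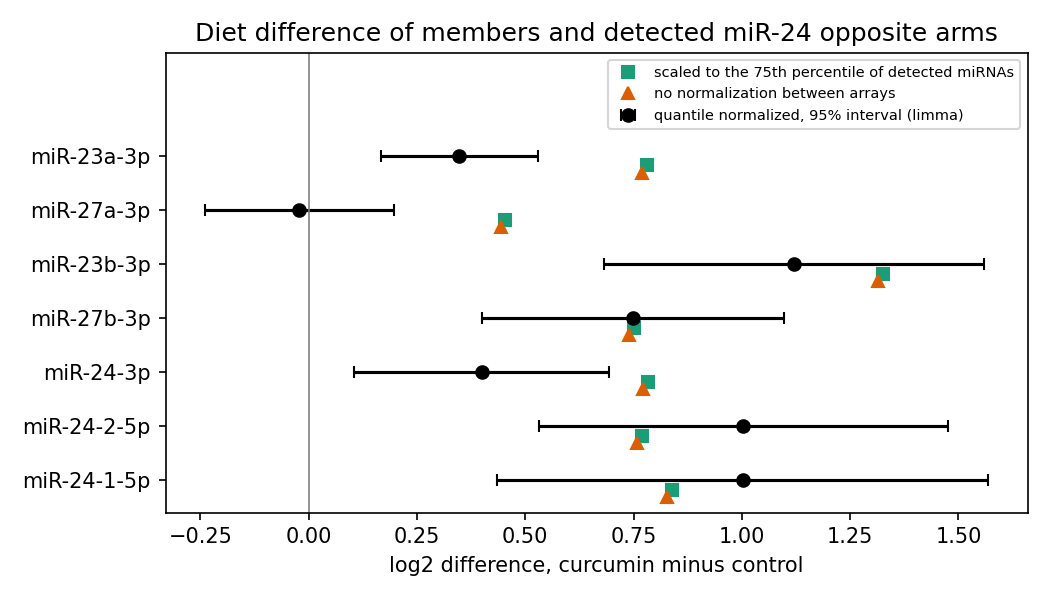
Log2 difference between the diets, curcumin minus control, for the 5 members and the detected opposite arms of miR-24. Black points and bars are limma estimates with 95% intervals after quantile normalization, green squares are the differences after scaling each array to the 75th percentile of detected miRNAs, and orange triangles are those with no normalization between arrays. miR-27a-3p moved from -0.02 to 0.45 and 0.44, miR-24-3p from 0.40 to 0.78 and 0.77, and miR-27b-3p stayed near 0.75.

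The scaling moved the members unequally, and mainly those of the a cluster and miR-24-3p. After scaling to the 75th percentile of detected miRNAs all 5 members were called higher in curcumin tumors, beside 6.58% of all miRNAs, and the log2 differences were 0.78 for miR-23a-3p, 0.45 for miR-27a-3p, 1.33 for miR-23b-3p, 0.75 for miR-27b-3p and 0.78 for miR-24-3p. The median difference of the 243 miRNAs detected in all tumors was -0.25 under this scaling. With no normalization the log2 differences ran from 0.44 to 1.32, and 0 members passed the adjusted threshold in limma, where 0.927% of all miRNAs were called higher and 1 member had an unadjusted p below 0.05. In these signals curcumin tumor 5 was the lowest of all 13 tumors for each of the 5 members. miR-23b-3p had 347 units of brightness there, between 1146 and 2941 in the other 6 curcumin tumors, and between 488 and 805 in controls. After quantile normalization but without tumor 5, the log2 differences were 1.27 for miR-23b-3p, 0.86 for miR-27b-3p, 0.38 for miR-23a-3p, 0.0096 for miR-27a-3p, 1.13 for miR-24-2-5p and 1.16 for miR-24-1-5p, so that each lay above its value with all tumors.

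The signals of single probes were compared next. Each member was measured by 2 probes of 20 spots each. Both probes gave a higher signal in curcumin tumors for miR-23b-3p (log2 differences 1.08 and 1.28), miR-27b-3p (0.63 and 0.71) and miR-23a-3p (0.44 and 0.65), all past the threshold in limma. The probes of miR-24-3p gave 0.46 and 0.38, of which the brighter passed. Those of miR-27a-3p gave -0.00 and 0.23, and neither passed.

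Whether the clusters differed in their response was tested by the ratio of a to b within each array. A ratio cancels any factor that scales a whole array, and it was taken between miR-23a-3p and miR-23b-3p and between miR-27a-3p and miR-27b-3p. Its size in one tumor has no meaning, since the probes differ, but its change between the diets can be tested.

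The log2 ratio of miR-23a-3p over miR-23b-3p was 0.48, 0.78, 0.85, 0.73, 1.60, 0.68 and 0.98 in curcumin tumors 1 to 7, and 1.64, 1.52, 1.79, 1.80, 1.62 and 1.49 in controls 1 to 6. Except for tumor 5, all curcumin tumors were below every control. The mean ratio of curcumin tumors was 0.87 ± 0.35 (SD, n = 7), and controls had 1.64 ± 0.13 (SD, n = 6). The difference was -0.77 ± 0.14 (SE), with an interval from -1.07 to -0.43 by inversion of the exact permutation test, p = 0.00233 and 0.00233 after adjustment over both ratios.

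The log2 ratio of miR-27a-3p over miR-27b-3p fell as well. It was 1.30, 1.40, 1.47, 1.38, 2.03, 1.54 and 1.62 in curcumin tumors 1 to 7, and 2.38, 2.10, 2.45, 2.43, 2.28 and 2.19 in controls 1 to 6. All 7 curcumin tumors were below all controls, and tumor 5 was again the nearest to them. The difference was -0.77 ± 0.11 (SE), with an interval from -0.996 to -0.518, an exact permutation p of 0.00117 and 0.00233 after adjustment. After quantile normalization each b cluster miRNA was, relative to its a paralog, 1.71-fold higher in curcumin tumors than in controls.

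**Figure D3:**
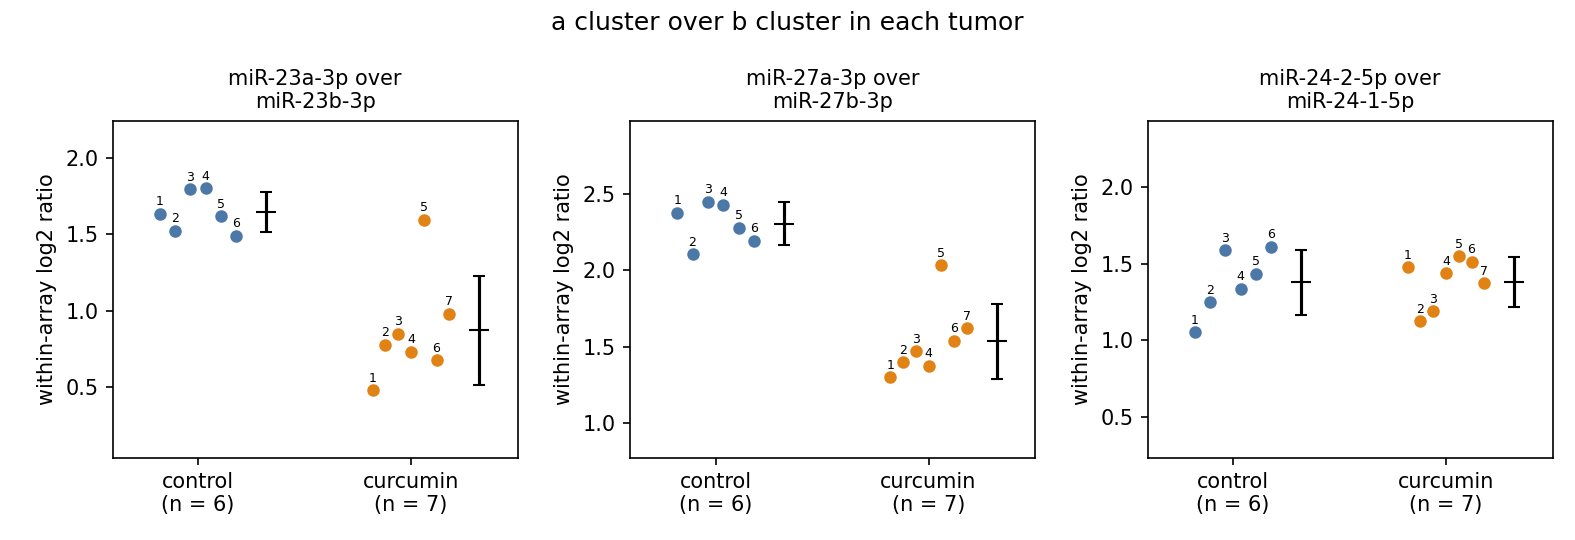
Within-array log2 ratio of the a over the b cluster product in each tumor, for miR-23-3p, miR-27-3p and the opposite arm of miR-24. Points are tumors, bars give the mean ± SD, and the vertical axes span the same width but start at different values. After quantile normalization the ratio fell by 0.77 for both miR-23 and miR-27. All curcumin tumors except tumor 5 of miR-23 are below the controls, whereas the groups overlap for the miR-24 arms.

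The direction of both differences held without quantile normalization, but their size did not. With no normalization, or with any factor per array, the ratio differed between the diets by -0.55 for miR-23 (exact permutation p = 0.00117) and by -0.30 for miR-27 (p = 0.00175). Within slide 1 the differences were -0.88 and -0.85 and within slide 2 they were -0.68 and -0.69. The adjusted p was 0.10 for both on slide 1, the smallest that 3 against 2 tumors allow, and 0.0571 for both on slide 2. When each tumor was left out in turn, the ratio of miR-23 ran from -0.89 to -0.71 and that of miR-27 from -0.85 to -0.73, with the largest fall of both without curcumin tumor 5, and all exact permutation p-values stayed below the threshold after adjustment (highest 0.00758).

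For the opposite arms of miR-24 no such shift was detectable after quantile normalization. The log2 ratio of miR-24-2-5p over miR-24-1-5p, which was added after the values were seen, ran from 1.12 to 1.55 (median 1.44) in curcumin tumors and from 1.05 to 1.61 (median 1.38) in controls. The groups overlapped almost completely. The mean ratio of curcumin tumors was 1.38 ± 0.16 (SD, n = 7), and controls had 1.38 ± 0.21 (SD, n = 6), with an interval of the difference from -0.23 to 0.24 and an exact permutation p of 0.99. Whether this ratio changed less than those of miR-23 and miR-27 was not tested, and its shift under other scalings was not tested. The diet differences of miR-24-2-5p and miR-24-1-5p themselves were 1.00 and 1.31 with the software's total signal per miRNA. They were 0.40 and 0.21 with normexp, and 0.76 and 0.83 with no normalization, so that their order depended on the processing. The normexp signals include an added 50 units, which shrinks the difference of the dimmer arm more. Binding of each probe to the other arm was not tested.

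Members of one cluster were compared for how they varied beyond the diet. The mean of each diet was removed and the 13 deviations of each pair were correlated, for all 10 pairs of members (permutation within diets, 100000 resamples, two-sided, adjusted over the 10 pairs). The points of a pair share the array, its RNA and its normalization. After quantile normalization the pair of the b cluster, miR-23b-3p and miR-27b-3p, had r = 0.98 (rho = 0.95), and the pair of the a cluster, miR-23a-3p and miR-27a-3p, had r = 0.91 (rho = 0.93). The adjusted permutation p was 5e-05 for both r values, which is the smallest the resampling could give for these 2 pairs, and 2e-04 and 1e-04 for the rho values.

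Between the clusters the paralogs miR-23a-3p and miR-23b-3p had r = 0.72 (rho = 0.74, adjusted permutation p = 0.0124 and 0.00724), and miR-27a-3p and miR-27b-3p had r = 0.72 (rho = 0.81, adjusted permutation p = 0.00110 and 0.000683). After quantile normalization the lowest of the 10 was that of miR-27a-3p with miR-23b-3p at r = 0.61 (rho = 0.64, adjusted permutation p = 0.00323 and 0.00790). miR-27b-3p and miR-23a-3p had r = 0.80 (rho = 0.87, adjusted permutation p = 0.00259 and 0.000683). The pairs with miR-24-3p had r = 0.86 for miR-23a-3p, 0.75 for miR-27a-3p, 0.87 for miR-23b-3p and 0.88 for miR-27b-3p, and their rho values were 0.90, 0.81, 0.79 and 0.83, with adjusted permutation p-values of at most 0.00724. All 10 pairs thus varied together, and the difference between the r values was not tested. The order of the r values depended on the scaling. With each array scaled to the 75th percentile of detected miRNAs, r was 0.91 for the a cluster pair, 0.93 for the b cluster pair, 0.93 for the miR-23 paralogs and 0.88 for the miR-27 paralogs, and the lowest was that of miR-23a-3p with miR-27b-3p at 0.81. With no normalization r ran from 0.97 to 1.00 over the 10 pairs.

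Curcumin tumor 5 deviated most from the mean of its diet in both b cluster miRNAs. Without it r was 0.94 for the b cluster pair, 0.90 for the a cluster pair, 0.71 for the miR-23 paralogs and 0.77 for the miR-27 paralogs. The largest loss was in the pairs of miR-24-3p with the b cluster, from 0.87 to 0.68 for miR-23b-3p and from 0.88 to 0.72 for miR-27b-3p. Without the 2 tumors farthest from the median of the first miRNA of a pair, r ran from 0.67 to 0.94 over the 10 pairs. With the means of diet and slide removed together it ran from 0.55 to 0.97.

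**Figure D4:**
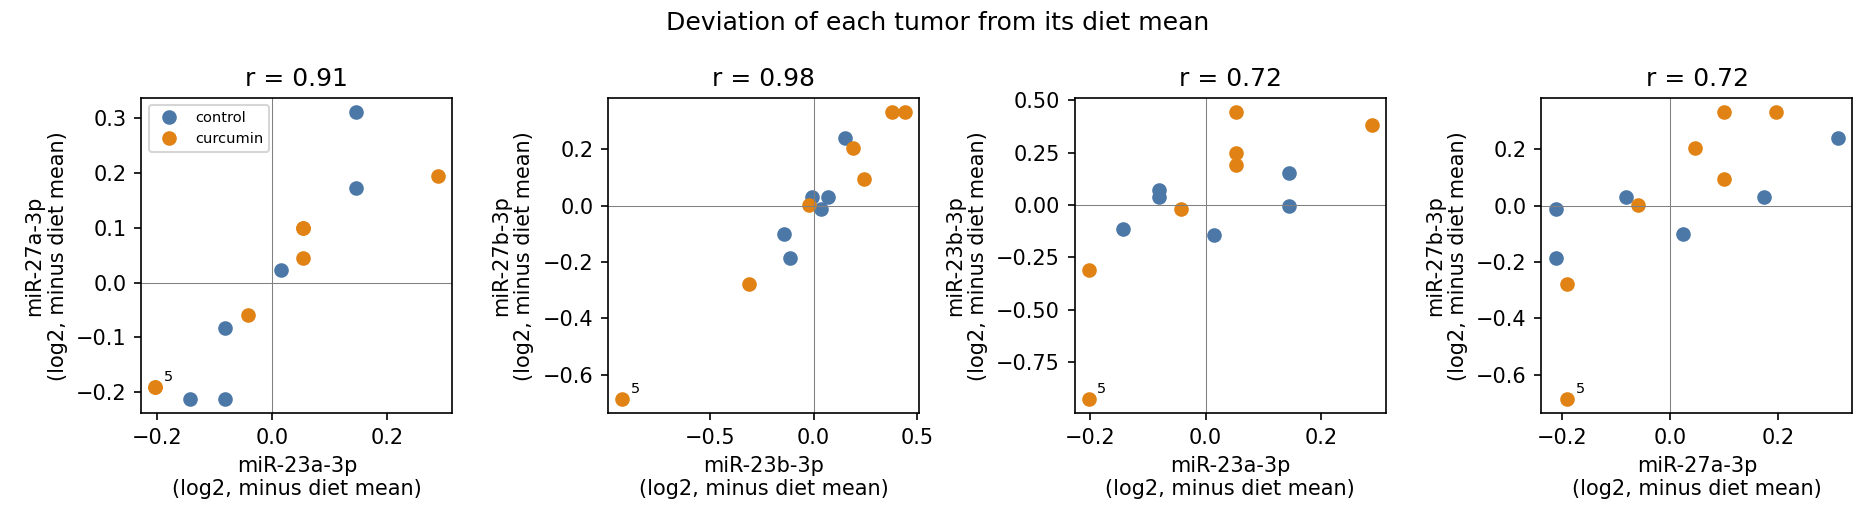
Deviation of each tumor from the mean of its diet (log2 units, quantile normalized) for a pair of miRNAs in each panel, with controls in blue and curcumin tumors in orange. The first panels show the a cluster pair (r = 0.91) and the b cluster pair (r = 0.98), and the last panels show the miR-23 paralogs and the miR-27 paralogs (both r = 0.72). Curcumin tumor 5, labeled 5, lies lowest in miR-23b-3p and miR-27b-3p.

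The miRNAs most like each member were found by the same correlation of the quantile-normalized values among the 238 other miRNAs detected in all tumors, as a description without a test. For miR-23a-3p these were miR-24-2-5p (r = 0.91), which comes from the same transcript, miR-24-1-5p (0.90) and miR-151-5p (0.89). For miR-24-3p they were miR-100-5p (0.96), miR-24-2-5p (0.94) and miR-26b-5p (0.90). The list of miR-23b-3p held miR-450a-5p (0.92), miR-125a-5p (0.92) and let-7e-5p (0.91), and that of miR-27b-3p held miR-9-3p (0.95), miR-99b-5p (0.92) and miR-125a-5p (0.92). All 5 of these miRNAs except miR-9-3p were called higher in curcumin tumors, with log2 differences from 0.68 to 1.41. Those listed for miR-23a-3p and for miR-24-3p were all called higher as well, with log2 differences from 0.72 to 1.00. Among the 243 miRNAs detected in all tumors 20.2% were called higher. miR-99b-5p, let-7e-5p and miR-125a-5p come from a cluster of their own. miR-27a-3p was most like miR-30a-5p (0.90), miR-9-5p (0.90) and miR-1949 (0.85), of which 0 were called (limma; unadjusted p below 0.05 in 1). Without curcumin tumor 5 the r of miR-23b-3p with miR-450a-5p was 0.74 and with let-7e-5p 0.75, and that of miR-24-3p with miR-26b-5p was 0.78.

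Some markers of other cell types moved with the diet in the same tumors, and others did not. Beside the counts below, 8.34% of all miRNAs were called higher and 7.51% lower. Among the 243 detected in all tumors 20.2% were called higher. Of the hematopoietic markers 4 of 4 were called higher in curcumin tumors (miR-142-3p, miR-142-5p, miR-223-3p and miR-150-5p), and their summed normalized signal was 342 to 1347 there and 84.4 to 286 in controls. Of the fibroblast and smooth muscle markers 2 of 5 were called higher, miR-199a-3p and miR-199a-5p, with sums of 498 to 1094 and 161 to 392. miR-143-3p and miR-145-5p of this list had log2 differences of 0.20 and -0.05 and were not called. Nor was miR-214-3p, at 5.61, which was detected in 7 curcumin and 3 control tumors. The endothelial pair miR-126-3p and miR-126-5p had sums of 254 to 820 in curcumin tumors and 137 to 281 in controls, and 0 of 2 were called (limma; 2 at an unadjusted p below 0.05).

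In the melanocytic list miR-211-5p was called lower and miR-204-5p was not called, and their sum was 4.19 to 624 in curcumin tumors and 308 to 847 in controls. Of the skeletal muscle markers 1 of 4 was called higher, with sums of 29.1 to 962 and 23.3 to 607, and of the epithelial markers 1 of 5, miR-205-5p, with sums of 218 to 1739 and 3.14 to 165. miR-200a-3p, miR-200b-3p and miR-200c-3p were detected in 0 of 13 tumors. Of the erythroid markers 0 of 2 were called in limma (0 at an unadjusted p below 0.05), with sums of 45.4 to 277 and 39.9 to 714. The part of these cell types in the differences of the miR-23/27/24 miRNAs was not tested.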

How the data were processed

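RNA of 13 flank tumors, 7 curcumin and 6 control, was measured with 1 array per tumor, and groups were taken from the sample labels. The authors labeled total RNA with Cy3, hybridized it to a mouse miRNA array based on miRBase, and deposited the intensity values of the scanner software (Feature Extraction, version 10.10.1.1), corrected for background, with a detection call per miRNA. The authors also deposited log2 values, quantile normalized over the 13 arrays. These were used as an alternative. All 14027 of them were met within 1e-04 from the scanner values.

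For the values here the probe signals of each of 1079 mouse miRNAs were summed, quantile normalized, set to 0.00765 where at or below 0 (7215 of 14027 values, none of a member), and transformed to log2. The test between diets was that of limma 3.58.1 in R 4.3.3 (two-sided, no covariates) with Benjamini-Hochberg adjustment over all 1079 miRNAs and a threshold of 0.05. Exact permutation tests used all 1716 splits. On simulated data with 200 of 1079 miRNAs changed by 2 (log2), limma called 56.5% of the changed miRNAs, with 2 false among 115 calls. Of the 75 changed miRNAs detected in all tumors it called 97.3%. A change of 2 is larger than that of any member, the largest being 1.12, and smaller changes were not simulated for limma. That each tumor came from a separate mouse rests on the group sizes in the methods, and p-values measure the spread between these samples.

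The named miRNAs are the members, their opposite arms, any miRNA with the seed of a member and the 3 miRNAs most like each member. Members, lists and tests were chosen with earlier results of these data known. The alternatives were other scalings, background corrections, floors, filters and tests, single probes, the slide, the replicate number and leaving out each tumor. The array design was annotated on another assembly than GRCm38.p6, and sequences were matched by name only.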

Additional observations from a re-analysis of the deposited data

Results flagged for a closer look

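Of 20 groups of values checked, 1 held a tumor far from the others, and chance alone marks about 1 group in 20. It was miR-23a-5p in curcumin tumors, where tumor 5 had a log2 signal of -2.11 and the other 6 tumors had 1.35 to 2.52. The gap took 0.748 of the range of the group. The signal of this arm before normalization was -1.12 in that tumor, below the local background.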

How the results depend on the processing

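miR-23b-3p, miR-27b-3p and miR-23a-3p kept their direction under all alternatives, and miR-27a-3p did not. With no normalization between arrays the log2 differences were 0.77 for miR-23a-3p, 1.32 for miR-23b-3p and 0.74 for miR-27b-3p, all short of the threshold, and 0 members passed in limma (1 at an unadjusted p below 0.05). On slide 1 alone these were 0.42, 1.29 and 0.86, and on slide 2 alone 0.29, 0.97 and 0.64, again with 0 members past the threshold (2 and 3 at an unadjusted p below 0.05) in fits of fewer tumors. miR-27a-3p turned positive with scaling to the 75th percentile of detected (0.45) or of all (0.67) miRNAs, with no normalization (0.44) and with normexp (0.0056). It was also positive on slide 1 (0.0071), with its dimmer probe (0.23) and without curcumin tumor 5 or 7 (both 0.0096). Without control 1 it was 0.040 and without control 3 it was 0.012, and the cause was not tested. miR-24-3p passed the threshold with the 75th percentile of detected (0.78) or of all miRNAs (1.00), with normexp (0.41), when the fit was limited to the 304 miRNAs found on each array of at least 1 diet (0.40) and with its brighter probe (0.46). Scaling to the 75th percentile of detected miRNAs brought all 5 members past the threshold.

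The ratios missed the threshold only on slide 1 alone (-0.88 and -0.85) and slide 2 alone (-0.68 and -0.69). Leaving out each tumor gave 0.30 to 0.38 for miR-23a-3p, -0.065 to 0.040 for miR-27a-3p, 1.05 to 1.27 for miR-23b-3p, 0.69 to 0.86 for miR-27b-3p, 0.34 to 0.49 for miR-24-3p, -0.89 to -0.71 and -0.85 to -0.73 for the ratios, and 3 to 4 members called. The number of miRNAs called, 171, was 105 with the 75th percentile of all miRNAs, 49 with no normalization, 102 with the software's total signal per miRNA, 34 and 3 on slides 1 and 2 alone and 103 to 184 with a tumor left out. The lowest counts with a tumor left out, 103 to 112, came without curcumin tumor 1, 2 or 6 or control 2 or 4. Of all calls, 52.6% were higher in curcumin tumors, 69.5% with the 75th percentile of all miRNAs and 20.4% with no normalization.

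The labels give both diets the same replicate numbers, but these did not pair the tumors. Deviations of tumors with the same number correlated with r from -0.30 to 0.20, and 0 of 6 controls were most like the curcumin tumor of their number. With the replicate number as a block, miR-23a-3p had a difference of 0.38 and an adjusted p of 0.0527 in limma, miR-27a-3p had 0.0096, and 67 miRNAs were called. The adjusted p of miR-24-1-5p was then 0.0538. On slide 1 alone miR-24-2-5p and miR-24-1-5p had differences of 1.22 and 1.11, and on slide 2 alone 0.84 and 0.86, all short of the threshold.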
